A study of Sus scrofa with 9 samples.

Results

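The genes described here carry a cell into and through mitosis. They were taken from a list of 49 gene symbols for mitotic entry, the spindle and the kinetochore, and 45 of these symbols head a row of the deposited table of 22629 rows. CDK1, CCNA2, AURKA and PTTG1 head no row under their symbol and are not counted among the members. Of the 45 members, 44 reached 1 TPM in at least 3 libraries and were tested together with 12268 genes in all, and KIF18A did not. TPM is a length-normalised share of all transcripts in a library, scaled to the same total in each.

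Left ventricular myocardium of wild type, untreated pigs was sampled at 3 postnatal ages, day 0, day 7 and day 15, and each age has 3 libraries. The replicate numbers in the titles are 4, 5 and 6 at day 0, 2, 5 and 6 at day 7, and 1, 2 and 6 at day 15, and values for a single age are given below in that order. The labels name neither breed nor sex and do not say that each library is a separate animal, so the p-values cover only how these libraries vary, which may be technical. The tissue was whole ventricle, so a change in the number of cycling cells and a change in the RNA per cell cannot be told apart.

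Entry into mitosis is driven by the kinase CDK1 bound to a B-type or A-type cyclin, which is switched on by CDC25 phosphatases and amplified by PLK1 and Aurora kinases. Condensins and topoisomerase II then compact the chromosomes, motors and microtubule-binding proteins build the spindle, and the kinetochore holds each chromosome to it while the spindle checkpoint delays anaphase. The anaphase-promoting complex ends mitosis by marking cyclin B and securin for destruction. Most of these transcripts are made in a burst in G2 and mitosis under the transcription factors FOXM1 and B-MYB. In the mammalian heart, cardiomyocytes leave the cell cycle around and after birth, and some of their last cycles end without cytokinesis, which leaves cells with more than 1 nucleus, while non-muscle cells of the heart continue to divide.

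The labelled tissue carried its defining markers, since all 9 heart muscle markers in the table passed the filter, with TNNT2, cardiac troponin T, between 6914 and 10582 TPM. The most abundant row, ENSSSCG00000032277, held 24.0% to 46.0% of the TPM of a library, and transcripts encoded by the mitochondrial genome held 16.5% to 24.6%. TPM keeps no record of depth, so the depth of the libraries is unknown. The newborn library numbered 5 stood apart from the other newborn libraries in the mitotic genes, and the counts over all members and over the other lists, and the members' differences between day 7 and day 0 that did not pass, are given with and without it. It was singled out by the values of these same genes. Every member had its highest newborn value there, so leaving it out lowers each newborn mean. Calls gained in that fit are therefore no independent evidence of a rise.

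The mean of 44 of the 45 members was highest at day 7, as was that of 34.8% of all genes tested. Their TPM summed to 116, 351 and 141 at day 0, to 480.2, 401 and 339 at day 7 and to 183, 239 and 285 at day 15. The day 7 libraries lay above every day 15 library in this sum, and newborn library 5 lay within the range of day 7. All 45 members had their highest newborn value in library 5, as had 34.5% of all genes tested. Library 5 held 3.29 times the mean of newborn libraries 4 and 6 for the median member, between 1.16 times for BUB3 and 5.00 times for KIF11, and 0.99 times for the median gene tested. The median coefficient of variation of the members was 74.9% at day 0, 16.8% at day 7 and 25.1% at day 15, beside 17.7%, 15.9% and 20.7% for all genes tested.

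**Figure D1:**
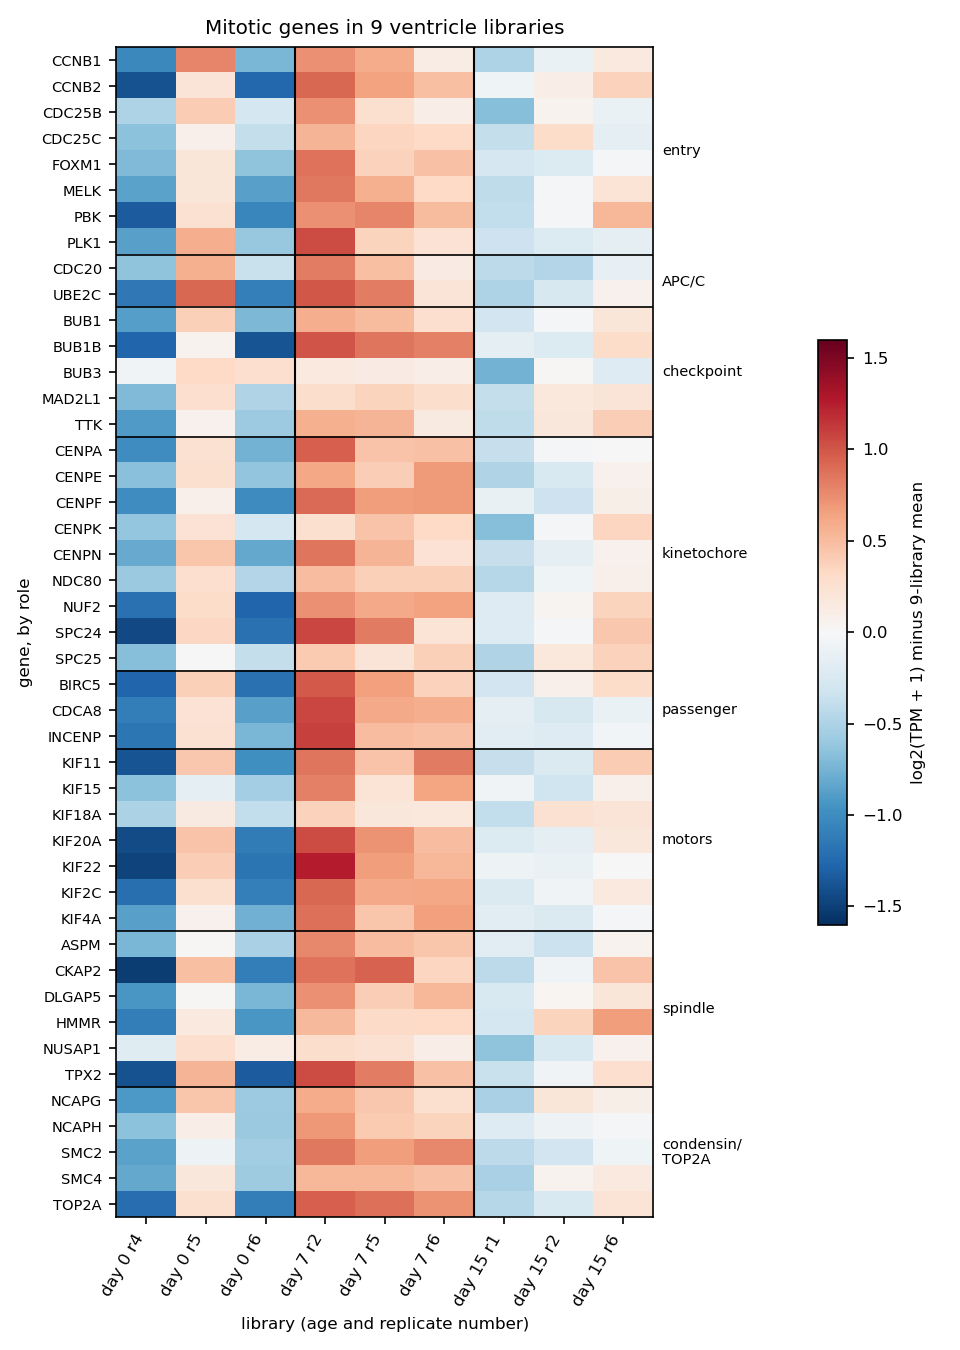
Log2(TPM + 1) of the 45 mitotic genes in each library minus the 9-library mean of that gene (colour scale), with genes in rows by role and libraries in columns by age. The newborn libraries 4 and 6 are blue in nearly all rows, newborn library 5 is mostly red and the day 7 libraries are red, and BUB3 and NUSAP1 are pale in most columns.

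The comparison of day 7 with day 0 covers the first week of life. Of the 44 members tested, 29 rose and 0 fell (limma adjusted p under 0.05), where 16.6% of the 12268 genes tested were called, 7.67% up and 8.88% down. The members had a median log2 fold change of 1.05 beside -0.04 for all genes tested, and 43 of 44 had a positive value. In 31 of the 45 members every day 7 library lay above every newborn library, which was so for 17.6% of genes tested. Without newborn library 5, 40 of 44 rose with a median of 1.39, where 20.1% of all genes changed in either direction. Without newborn library 4 or 6, 3 rose in each case, with medians of 0.85 and 0.91, where 4.56% and 3.06% of all genes changed. These 3 were BUB1B, SMC2 and CENPF, which were called in each of the 19 alternative settings in which they were tested. The other called members were tested in 19 or 20 such settings. Of these, 9 lost the call in 2 to 4 settings, 16 in 5 to 8 and 1, HMMR, in more than 8. The count of members called was 11 without day 7 library 2 and 16 without day 7 library 6, where 9.19% and 7.07% of all genes changed.

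**Figure D2:**
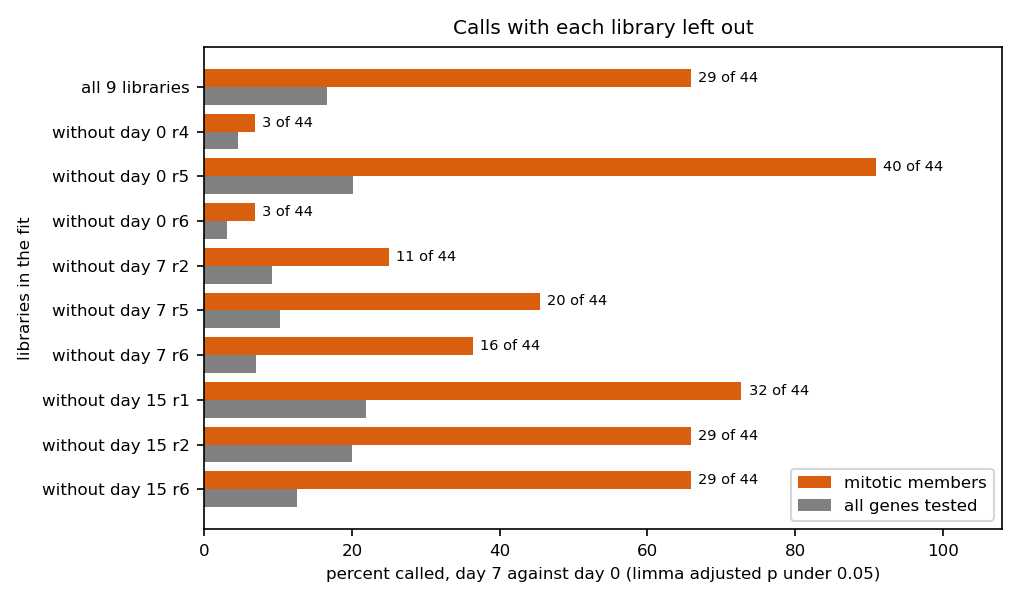
Percent of the mitotic members (orange, with the count) and of all genes tested (grey) called between day 7 and day 0 by limma when all 9 libraries or all but 1 are fitted. The count is 29 of 44 with all libraries, 3 without newborn library 4 or 6 and 40 without newborn library 5.

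Among the genes of mitotic entry, 4 of 8 rose over the first week. CCNB2, a B-type cyclin, had 0.928, 4.86 and 1.12 TPM on day 0, 8.66, 6.98 and 6.11 on day 7 and 3.84, 4.48 and 5.55 on day 15. Every day 7 library lay above the newborn libraries, and the log2 fold change was 1.5 ± 0.35 (SE, limma adjusted p = 0.0157). FOXM1, the transcription factor that drives many G2 and mitosis genes, stood at 0.515, 1.84 and 0.581 TPM on day 0, 3.51, 2.2 and 2.41 on day 7 and 1.05, 1.12 and 1.41 on day 15. It rose by 0.95 on the log2(TPM + 1) scale (limma adjusted p = 0.024), from a level near 1 TPM at which a pseudocount of 1 TPM shrinks the fold. The kinases MELK and PBK rose by 1.09 and 1.38 (limma adjusted p = 0.026 and 0.024). MELK was listed at 0.944, 3.03 and 0.923 TPM on day 0, 5.29, 4.22 and 3.39 on day 7 and 1.65, 2.46 and 3.09 on day 15. PBK was listed at 0.731, 4.18 and 1.11 TPM on day 0, 6.22, 6.46 and 5.18 on day 7 and 2.32, 3.27 and 5.32 on day 15. In both, newborn library 5 was the highest newborn library and lay below every day 7 library.

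The remaining entry genes did not pass in the first week with all libraries. CCNB1, the other B-type cyclin among the members, had 2.59, 11.6 and 3.43 TPM on day 0, 11.2, 10.1 and 6.95 on day 7 and 4.2, 5.8 and 7.17 on day 15. Newborn library 5 was its highest library of all 9, so the ages overlapped, and the log2 difference of 0.81 had a limma adjusted p of 0.16 (1.36 and 0.00437 without newborn library 5). PLK1, which amplifies CDK1 activity and builds spindle poles, had 4.15, 13.1 and 5.17 TPM on day 0, 18.3, 11.002 and 10.01 on day 7 and 6.46, 7.06 and 7.46 on day 15. Its difference was 0.84 (limma adjusted p = 0.0974), and without newborn library 5 it was 1.28 (limma adjusted p = 0.00539). The phosphatase CDC25B, the most abundant entry gene, had 12.4, 24.1 and 14.6 TPM on day 0, 30.5, 21.5 and 19.3 on day 7 and 10.8, 18.7 and 16.5 on day 15, with overlapping ages (limma adjusted p = 0.224, and 0.0616 without newborn library 5). Its relative CDC25C differed by 0.72, just short of the threshold at a limma adjusted p of 0.0501, and without newborn library 5 it passed at 0.92 (limma adjusted p = 0.0166).

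CDK1 itself, the kinase at the centre of mitotic entry, heads no row by symbol, but the gene name table pairs the row ENSSSCG00000010214 with it. The row is shown because of its role and was chosen outside the list rule. It held 3.11, 22.8 and 5.69 TPM on day 0, 24.4, 24.3 and 18.3 on day 7 and 10.3, 17.6 and 21.3 on day 15. Newborn library 5 again lay in the range of day 7, and the difference of 1.42 between day 7 and day 0 did not pass (limma adjusted p = 0.0662). Without that library, in a fit added for this row after seeing the data, the difference was 2.14 (limma adjusted p = 0.00103).

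The members that act with the anaphase-promoting complex, UBE2C and CDC20, did not pass in the first week with all libraries. UBE2C, the ubiquitin-conjugating enzyme of the complex and the member with the highest 9-library mean (33.3 TPM), had 12.5, 55.7 and 13.1 TPM on day 0, 58.5, 51.7 and 33.6 on day 7 and 20.2, 24.1 and 30.4 on day 15. It took 9.24% to 15.9% of the summed TPM of the members in the newborn libraries, and the newborn value of library 5 was 4.36 times the mean of libraries 4 and 6. Its difference of 1.11 did not pass (limma adjusted p = 0.103), and without newborn library 5 it was 1.79 (limma adjusted p = 0.00109). CDC20, the activator of the complex and the target of the spindle checkpoint, differed by 0.62 (limma adjusted p = 0.147), with means of 7.51 ± 3.95, 11.5 ± 2.96 and 6.004 ± 0.914 TPM (SD, n = 3) at the 3 ages. CDC20 rose without newborn library 5, by 0.98 (limma adjusted p = 0.0143).

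Of the 5 checkpoint genes, BUB1B and TTK rose. BUB1B encodes BubR1, part of the complex that inhibits CDC20, and had the largest log2 fold change of all members, 1.75 ± 0.32 (SE, limma adjusted p = 0.00677). Its values were 1.14, 4.33 and 0.968 TPM on day 0, 9.31, 8.3 and 7.97 on day 7 and 3.62, 3.42 and 5.3 on day 15, and the lowest day 7 library was above the highest newborn and the highest day 15 library. The kinase TTK, which starts checkpoint signalling, had 0.624, 2.19 and 1.03 TPM on day 0, 3.51, 3.44 and 2.36 on day 7 and 1.29, 2.45 and 2.997 on day 15 and rose by 0.89 (limma adjusted p = 0.0446). BUB1 and MAD2L1 had differences of 0.86 and 0.61 that did not pass (limma adjusted p = 0.0611 and 0.111). Without newborn library 5 both rose, by 1.26 and 0.90 (limma adjusted p = 0.00252 and 0.0154). BUB3 differed from the other members in sign. It is a WD-repeat protein that carries BUB1 and BubR1 to the kinetochore, and it had 18.4, 24.2 and 23.3 TPM on day 0, 21.6, 21.2 and 20.7 on day 7 and 10.96, 19.4 and 16.5 on day 15. Its difference of -0.04 at day 7 was the only negative one of the 44 (limma adjusted p = 0.902), its sign turned positive under each of the 3 other scalings tried, and library 5 held 1.16 times the mean of its newborn companions. Without library 5 the difference was 0.03 (limma adjusted p = 0.942).

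**Figure D3:**
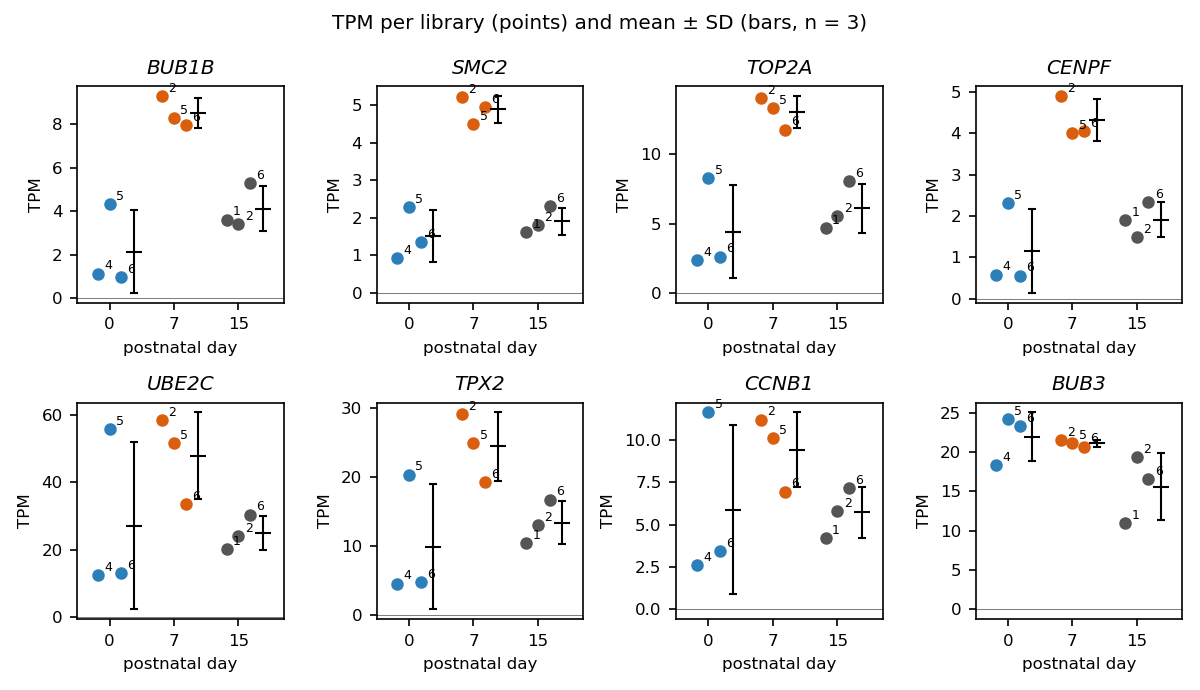
TPM of 8 mitotic genes against postnatal day, with 1 point per library labelled by replicate number and bars for the mean ± SD (n = 3). Newborn library 5 is the highest newborn library in all 8 panels, reaching or passing the lowest day 7 library for UBE2C, TPX2, CCNB1 and BUB3, and in BUB3 the newborn libraries hold 18.4 to 24.2 TPM and the day 7 libraries 20.7 to 21.6 TPM.

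At the centromere and kinetochore, 5 of 9 genes rose. CENPF, a large protein of the outer kinetochore, had 0.584, 2.31 and 0.559 TPM on day 0, 4.9, 4.01 and 4.06 on day 7 and 1.9, 1.5 and 2.34 on day 15, with a log2 fold change of 1.4 ± 0.27 (SE, limma adjusted p = 0.00811). CENPE, the kinetochore motor that brings chromosomes to the metaphase plate, had 0.754, 2.33 and 0.788 TPM on day 0, 3.25, 2.64 and 3.47 on day 7 and 0.997, 1.35 and 1.93 on day 15 and rose by 0.91 (limma adjusted p = 0.032). CENPA, the histone H3 variant that marks the centromere, had 0.571, 2.72 and 0.861 TPM on day 0, 5.07, 3.28 and 3.33 on day 7 and 1.43, 2.1 and 2.14 on day 15 and rose by 1.12 (limma adjusted p = 0.024). In these 3 genes every day 7 library was above every newborn and every day 15 library.

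NDC80, NUF2, SPC24 and SPC25 form the 4-subunit complex that grips the microtubule, and their transcripts were unequal. SPC24 was the most abundant, at 5.78, 22.1 and 7.03 TPM on day 0, 37.6, 31.8 and 20.4 on day 7 and 14.9, 17.1 and 23.8 on day 15, and rose by 1.48 (limma adjusted p = 0.027), although newborn library 5 overlapped with day 7. NUF2 had 1.42, 5.8 and 1.3 TPM on day 0, 8.18, 7.44 and 7.69 on day 7 and 3.8, 4.73 and 6.1 on day 15 and rose by 1.38 (limma adjusted p = 0.0204). The partners NDC80 and SPC25 had lower levels, with day 7 means of 3.05 ± 0.189 and 2.36 ± 0.262 TPM (SD, n = 3), and their differences of 0.68 and 0.69 did not pass (limma adjusted p = 0.0648 and 0.0679). Both rose without newborn library 5, by 0.95 and 0.86 (limma adjusted p = 0.00958 and 0.0322). Neither CENPK nor CENPN, subunits of the inner kinetochore, passed, at 0.57 and 0.93 (limma adjusted p = 0.161 and 0.058), and without newborn library 5 CENPN rose by 1.36 (limma adjusted p = 0.00255) and CENPK stood at 0.79 (limma adjusted p = 0.0584).

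All 3 genes of the chromosomal passenger complex, which corrects faulty attachments and later directs cytokinesis, rose. Survivin, BIRC5, had 3.48, 13.03 and 3.7 TPM on day 0, 20.2, 15.9 and 12.9 on day 7 and 7.7, 10.4 and 12.2 on day 15 and rose by 1.36 (limma adjusted p = 0.0293), with newborn library 5 just inside the day 7 range. Borealin, CDCA8, had 0.698, 3.27 and 0.997 TPM on day 0, 6.66, 4.58 and 4.48 on day 7 and 2.3, 2.05 and 2.41 on day 15 and rose by 1.34 (limma adjusted p = 0.0132). The scaffold INCENP had 1.19, 4.78 and 1.94 TPM on day 0, 9.42, 5.86 and 5.72 on day 7 and 3.31, 3.23 and 3.71 on day 15 and rose by 1.23 (limma adjusted p = 0.0208). For CDCA8 and INCENP the day 7 libraries lay above all libraries of both other ages. AURKB, the kinase of this complex, is no member and is named after its values were seen. It rose by 1.53 (limma adjusted p = 0.0191), from 9.6 ± 7.5 to 25.7 ± 6.32 TPM (SD, n = 3).

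Each of the 6 mitotic motors tested rose, and in all 6 every day 7 library was above every newborn and every day 15 library. KIF22, a chromosome-arm motor, had 1.27, 7.3 and 1.82 TPM on day 0, 14.2, 9.05 and 8.19 on day 7 and 4.97, 4.87 and 5.3 on day 15 and the largest log2 fold change among the motors, 1.57 ± 0.39 (SE, limma adjusted p = 0.0198). KIF20A, which acts in late mitosis and was the most abundant motor, had 1.94, 9.87 and 2.64 TPM on day 0, 15.4, 12.04 and 10.1 on day 7 and 5.8, 6.17 and 7.996 on day 15 (1.45, limma adjusted p = 0.0266). KIF11, which pushes the spindle poles apart, had 0.771, 5.26 and 1.33 TPM on day 0, 7.35, 5.35 and 7.22 on day 7 and 2.59, 2.93 and 5.11 on day 15 (1.36, limma adjusted p = 0.0331). Its newborn libraries had a coefficient of variation of 99.6%, the highest of the 45 members.

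The microtubule depolymerase KIF2C had 0.682, 3.61 and 0.814 TPM on day 0, 6.34, 4.9 and 4.94 on day 7 and 2.31, 2.73 and 3.33 on day 15 and rose by 1.4 (limma adjusted p = 0.0154). The chromokinesin KIF4A had 0.702, 2.28 and 0.836 TPM on day 0, 4.76, 3.24 and 3.92 on day 7 and 1.78, 1.67 and 2.07 on day 15 and rose by 1.18 (limma adjusted p = 0.0103). KIF15, which helps to hold a bipolar spindle, had 0.661, 1.33 and 0.783 TPM on day 0, 3.58, 2.04 and 3.02 on day 7 and 1.51, 1.09 and 1.75 on day 15 and rose by 1.01 (limma adjusted p = 0.011). KIF18A, which limits the swing of chromosomes at the metaphase plate, had 0.212, 0.902 and 0.309 TPM on day 0, 1.23, 0.947 and 0.932 on day 7 and 0.317, 1.03 and 0.992 on day 15. It reached 1 TPM in 2 libraries only and was not tested, and its day 7 libraries also lay above its newborn libraries.

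Of the 6 spindle assembly and microtubule-binding genes, 5 rose. TPX2, the activator of Aurora A and the most abundant of them, had 4.6, 20.4 and 4.81 TPM on day 0, 29.1, 24.9 and 19.3 on day 7 and 10.5, 13.1 and 16.8 on day 15 and rose by 1.5 (limma adjusted p = 0.0313), with newborn library 5 inside the day 7 range. CKAP2, a spindle microtubule stabiliser, had 2.29, 12.1 and 3.36 TPM on day 0, 16.2, 17.1 and 10.96 on day 7 and 6.05, 8.01 and 11.9 on day 15 and rose by 1.43 (limma adjusted p = 0.0374), with the same overlap. ASPM, a protein of the spindle poles, had 0.309, 1.19 and 0.508 TPM on day 0, 2.68, 2.04 and 1.94 on day 7 and 0.912, 0.702 and 1.26 on day 15 and rose by 0.98 (limma adjusted p = 0.0136). In ASPM no day 7 library overlapped with either other age.

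DLGAP5, which stabilises kinetochore fibres, had 0.479, 1.84 and 0.695 TPM on day 0, 3.68, 2.7 and 3.05 on day 7 and 1.37, 1.88 and 2.21 on day 15 and rose by 1.1 (limma adjusted p = 0.0131). HMMR, a microtubule-binding protein of the spindle, had 0.872, 3.48 and 1.11 TPM on day 0, 4.77, 3.96 and 4.04 on day 7 and 2.3, 4.15 and 5.4 on day 15 and rose by 1.01 (limma adjusted p = 0.0488), a call lost in 10 of 19 alternative settings. It was also the member whose day 15 libraries stayed nearest to day 7, and day 15 library 6 was its highest of all. NUSAP1, which bundles spindle microtubules, moved least after BUB3. It had 7.38, 10.6 and 9.4 TPM on day 0, 10.7, 10.3 and 9.31 on day 7 and 5.17, 7.14 and 9.04 on day 15, with overlapping newborn and day 7 libraries and a difference of 0.15 (limma adjusted p = 0.646), or 0.25 (limma adjusted p = 0.455) without newborn library 5.

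Among the genes that shape mitotic chromosomes, 4 of 5 rose. SMC2, a core ATPase of condensin, had the smallest limma adjusted p of the members, 0.00519, with a log2 fold change of 1.26 ± 0.21 (SE). Its values were 0.919, 2.27 and 1.35 TPM on day 0, 5.22, 4.5 and 4.93 on day 7 and 1.61, 1.81 and 2.3 on day 15, and day 7 stood clear of both other ages. Its partner SMC4 had 5.54, 12.02 and 6.73 TPM on day 0, 15.6, 15.6 and 14.9 on day 7 and 7.01, 11.01 and 11.8 on day 15 and rose by 0.91 (limma adjusted p = 0.0331). TOP2A, the topoisomerase that untangles sister chromatids, had 2.34, 8.3 and 2.61 TPM on day 0, 14.1, 13.3 and 11.8 on day 7 and 4.67, 5.56 and 8.05 on day 15 and rose by 1.54 (limma adjusted p = 0.0122). The condensin I subunit NCAPH had 1.13, 2.59 and 1.21 TPM on day 0, 4.43, 3.47 and 3.29 on day 7 and 1.89, 2.15 and 2.26 on day 15 and rose by 0.88 (limma adjusted p = 0.0204), and its partner NCAPG differed by 0.78, which did not pass (limma adjusted p = 0.1). NCAPG rose without newborn library 5, by 1.18 (limma adjusted p = 0.00733).

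**Figure D4:**
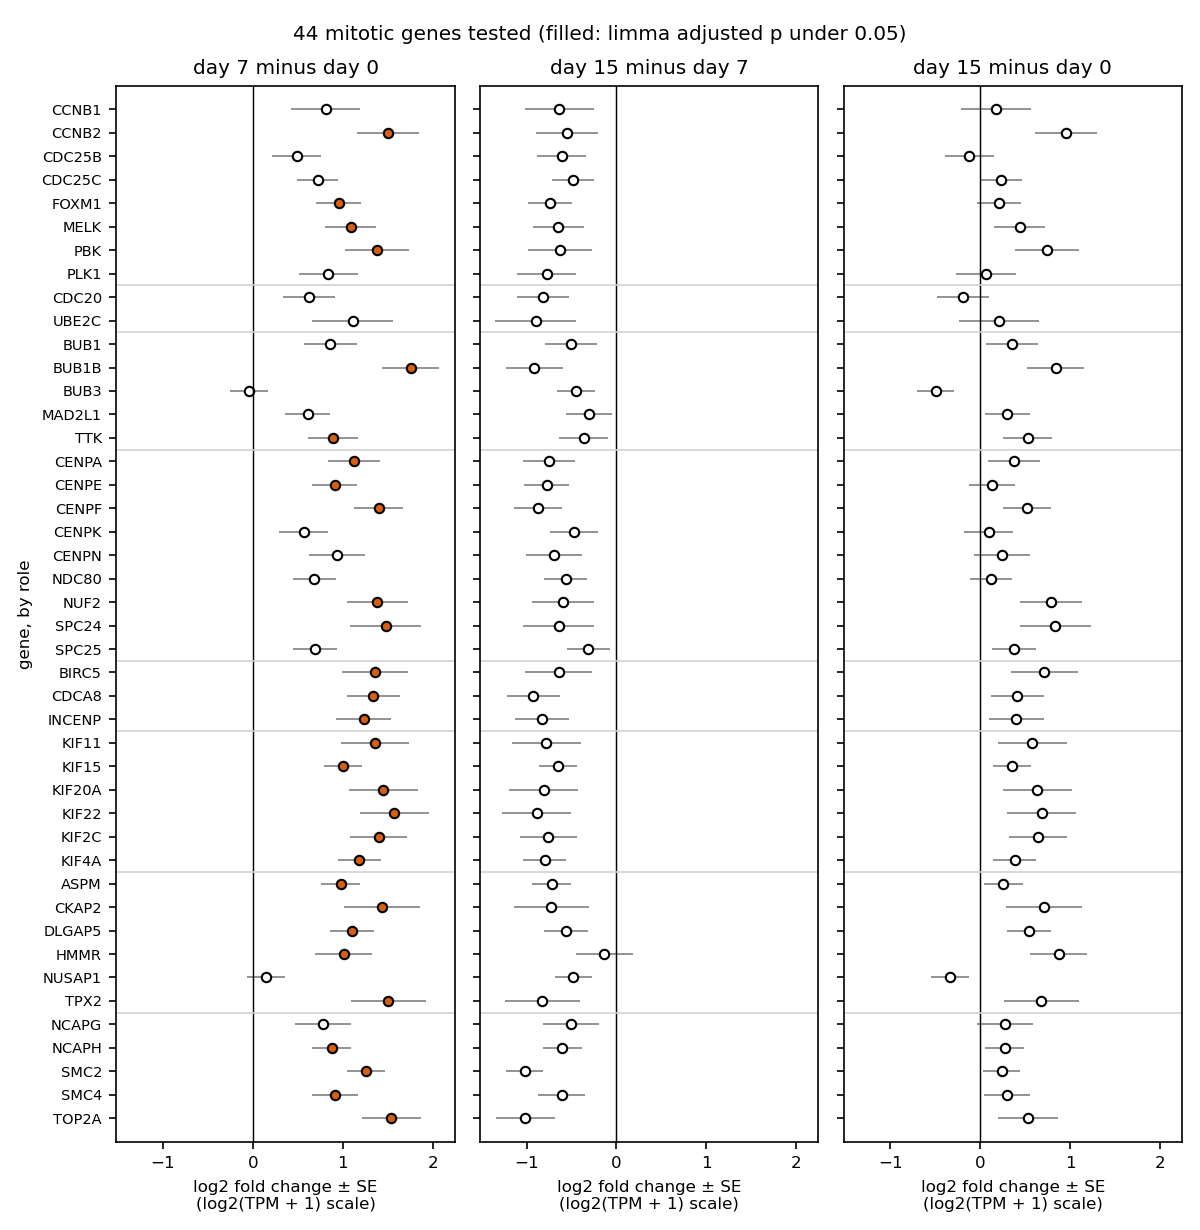
Log2 fold change ± SE on the log2(TPM + 1) scale for the 44 mitotic genes tested (rows, by role) in the 3 comparisons of ages, filled where the limma adjusted p is under 0.05. In the first panel 29 points are filled, and in the second all 44 points lie below 0 with none filled.

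The comparison of day 15 with day 7 covers the second week and shares the day 7 libraries with the comparison above. All 44 members had a negative difference, with a median of -0.65 beside -0.15 for all genes tested, and no member passed (limma, 0 of 44, where 0.171% of all genes were called, 0.0408% up and 0.13% down). At an unadjusted p under 0.05 there were 24 of the 44 members (54.5%) and 12.8% of all genes tested. The smallest limma adjusted p was 0.0905, for SMC2, whose difference was -1.02 ± 0.21 (SE), and the next largest differences were those of TOP2A (-1.01), CDCA8 (-0.92) and BUB1B (-0.91). These differences did not pass, with limma adjusted p = 0.255, 0.242 and 0.273. In 36 of the 45 members every day 15 library lay below every day 7 library, beside 17.9% of genes tested. The members were lowest in day 15 library 1 in 36 cases, as were 74.4% of genes tested, and highest in day 15 library 6 in 40 cases, as were 19.0%. After median-of-ratios scaling, which moved the median of all genes from -0.15 to 0.00, the median of the members was -0.53. SMC2 passed in the fit without newborn library 5 (limma adjusted p = 0.0347). That library does not enter the difference itself, but it enters the shared estimate of the spread, the filter and the adjustment over all genes.

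The first step, day 7 minus day 0, was also tested against the second step, day 15 minus day 7, in 1 contrast. It called 8 of the 44 members, all with a larger first step, where 1.92% of genes tested were called, 1.53% in this direction and 0.391% in the other, and all 44 had a positive value. These were SMC2 (2.28, limma adjusted p = 0.0185), CENPF (2.27, 0.034), BUB1B (2.67, 0.0351), KIF4A (1.98, 0.037), ASPM (1.7, 0.0423), KIF15 (1.66, 0.0423), CDCA8 (2.26, 0.0463) and TOP2A (2.55, 0.0463). In each of the 8, the lowest day 7 library was above the highest library of both other ages, as in 25 of the 45 members and 6.15% of genes tested. Without newborn library 5 the count was 36, where 5.89% of all genes were called. It was 0 without newborn library 4 or 6 (0.115% and 0.132% of all genes) and without day 7 library 2 or 6 (0.0246% and 0%). The count was 1 or 2 without any other library, where 0.528% to 1.62% of all genes were called.

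Over both weeks together, day 15 against day 0, 0 of 44 members passed (limma), where 23.9% of all genes did, 5.53% up and 18.4% down. At an unadjusted p under 0.05 there were 6 of the 44 members (13.6%), fewer by share than the 39.0% of all genes tested. The members' median was 0.38 beside -0.19 for all genes tested, 40 were positive and 4 negative, and in all 45 the day 15 and newborn libraries overlapped. Of all genes tested, day 15 lay wholly above day 0 in 9.45% and wholly below in 30.5%. The smallest limma adjusted p values were those of CCNB2 (0.95, 0.0632), HMMR (0.87, 0.0638) and BUB1B (0.84, 0.073). The 4 with a negative value were BUB3 (-0.49), NUSAP1 (-0.34), CDC20 (-0.19) and CDC25B (-0.12), and the last 2 turned positive under median-of-ratios scaling. That scaling moved the median of all genes from -0.19 to 0.01 and the median of the members to 0.52. Under it 4 of 44 members rose, CCNB2, BUB1B, DLGAP5 and HMMR, where 31% of all genes changed in either direction. Without newborn library 5, 25 of 44 rose with a median of 0.75, where 26.3% of all genes changed. CCNB2 then had 1.46 (limma adjusted p = 0.00137) and NUF2 1.3 (0.00214). Without day 15 library 1, 1 member rose, HMMR, and without day 15 library 2, 1 member fell, BUB3, where 17.8% and 26.9% of all genes changed.

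Other genes of the same machinery were followed in 6 lists that hold no member, 102 tested genes in all. Of all genes tested, 7.67% rose and 8.88% fell at day 7. Among 21 other motor, spindle and condensin genes, 13 rose and 0 fell at day 7, with a median of 0.86. The motor KIF14, which acts in cytokinesis, had the smallest limma adjusted p of them, 0.00462, with a rise of 1.34. Of 31 other checkpoint, centromere and kinetochore genes 10 rose and 0 fell, median 0.51, with KNTC1, a subunit of the checkpoint complex that recruits dynein, having the smallest limma adjusted p (0.94, 0.00785). Among 14 other entry regulators 5 rose and 0 fell, median 0.67, and the smallest limma adjusted p was that of PKMYT1, the kinase that holds CDK1 inactive (1.03, limma adjusted p = 0.00923).

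The other 3 lists hold genes of or acting with the anaphase-promoting complex, cohesin and the DREAM complex, and are read against the 16.6% of all genes called. Of 16 other genes listed with the anaphase-promoting complex, 1 rose and 1 fell, with a median of -0.05. The 1 that rose was ESPL1, separase, the protease that cuts cohesin at anaphase, which is no subunit of the complex (0.883 ± 0.66 to 3.4 ± 0.698 TPM, SD, n = 3, 1.27, limma adjusted p = 0.00748). The subunit ANAPC7 fell (-0.65, limma adjusted p = 0.0266). Of 9 cohesin genes 0 passed (limma, 1 at an unadjusted p under 0.05, or 11.1% beside 33.8% of all genes tested), with a median of -0.01. In the list of DREAM and B-MYB complex genes, which hold mitotic promoters silent in resting cells or activate them in cycling cells, 2 of 11 rose and 1 fell. MYBL2, the B-MYB activator itself, had 2.5, 10.8 and 3.03 TPM on day 0, 26.1, 18.1 and 12.8 on day 7 and 7.5, 6.95 and 10.4 on day 15 and rose by 1.81 (limma adjusted p = 0.0128). The other gene that rose was TFDP2, an E2F partner (1.14, limma adjusted p = 0.00923), and E2F4, the repressor E2F of resting cells, fell by 0.76 (limma adjusted p = 0.029). No gene of the 6 lists passed between day 7 and day 15 (limma, 39 at an unadjusted p under 0.05, or 38.2% beside 12.8% of all genes tested), where 97 of the 102 had a negative difference with a median of -0.41. Between day 15 and day 0, 2 of the 102 rose and 6 fell, with a median of -0.11, where 5.53% of all genes rose and 18.4% fell. Without newborn library 5, 43 of the 102 rose and 2 fell at day 7 against day 0, and 25 rose and 6 fell at day 15 against day 0. Of all genes tested in that fit, 20.1% and 26.3% changed in either direction. The counts at day 7 were then 14 of 21 for motors, spindle and condensin, 18 of 31 for the checkpoint and kinetochore, 7 of 14 for entry and 3 of 11 for the DREAM list up, and the numbers that fell were as above in each list. Between day 15 and day 7, 1 gene then fell, the condensin II subunit NCAPG2, where 0.427% of all genes changed.

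**Figure D5:**
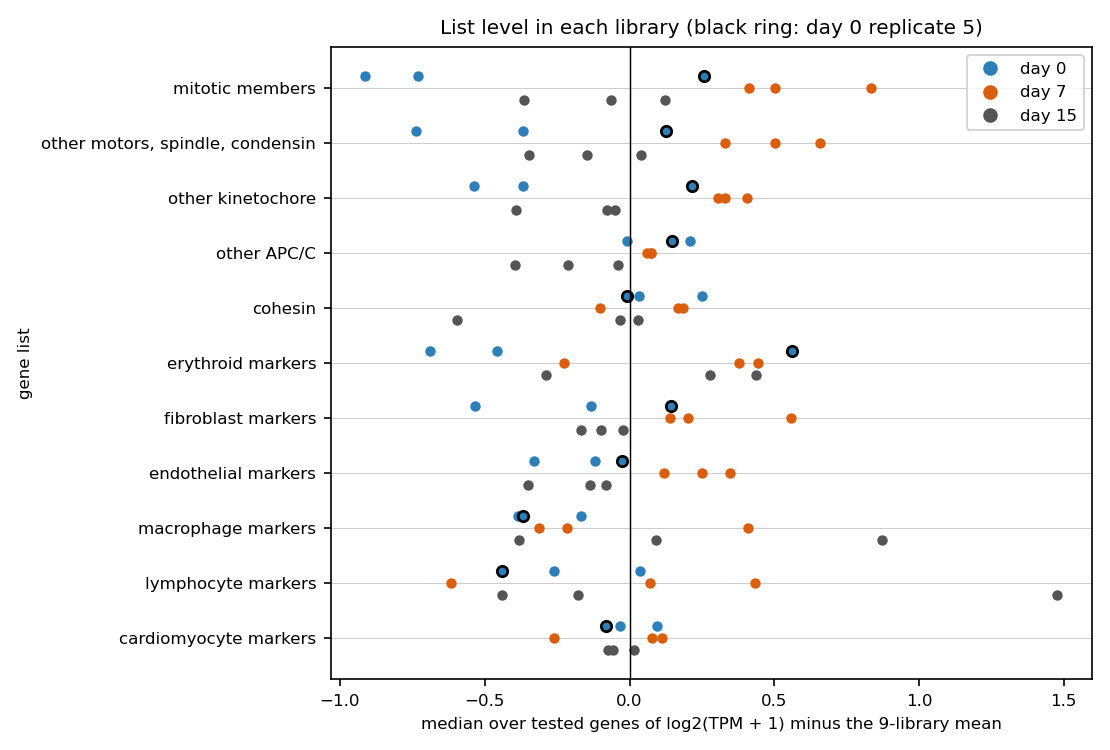
Median over the tested genes of each list of log2(TPM + 1) minus the 9-library mean (horizontal axis), with 1 point per library coloured by age and a black ring for newborn library 5. The mitotic members spread from -0.91 to 0.83 with newborn library 5 at 0.26, the cohesin list goes from -0.60 to 0.25, and the erythroid markers place newborn library 5 highest at 0.56.

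Markers of other cell types were read in the same libraries. The erythroid markers, of which 5 of 10 in the table passed the filter, had a summed level of 397 to 1269 TPM at day 0, 557 to 1221 TPM at day 7 and 437 to 662 TPM at day 15, nearly all of it HBB, a hemoglobin chain. By library, HBB had 504, 1227 and 374 TPM on day 0, 1167, 809 and 526 on day 7 and 396, 496 and 616 on day 15, and newborn library 5 was the highest newborn library and day 7 library 2 the highest at day 7, as in the sum of the mitotic genes. Of the list's transcription factors of red cell precursors, KLF1 was at most 0.0382 TPM and GATA1 at most 0.127 TPM in any library. Other genes of red cell precursors were present, with ALAS2, the first enzyme of heme synthesis in red cells, at 3.34 to 11.1 TPM, HEMGN at 0.643 to 2.34 TPM and AHSP, the hemoglobin alpha chaperone, at 0.398 to 2.23 TPM. Of the 5 erythroid markers tested 1, GYPC, rose and 0 fell at day 7, with a median of 0.36, where 7.67% of all genes rose and 8.88% fell.

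Fibroblast markers summed to 928 to 1439 TPM at day 0, 1623 to 2226 TPM at day 7 and 1159 to 1475 TPM at day 15, with 2 of 8 up at day 7 and 0 down. Endothelial markers summed to 224 to 263 TPM, 322 to 352 TPM and 202 to 242 TPM at the 3 ages, with 2 of 8 up and 1 down. Both sums were higher at day 7 than at either other age without overlap, as were 6.15% of genes tested taken singly. The marker counts are read against 7.67% of all genes tested up and 8.88% down. Pericyte and smooth muscle markers had 1 up and 1 down of 7 and macrophage markers 1 up and 0 down of 8. Heart muscle markers summed to 58952 to 64975 TPM, 45469 to 58990 TPM and 46984 to 51269 TPM, with 0 up and 1 down of 9. Lymphocyte markers summed to 7.72 to 43.99 TPM over the 9 libraries, and 4 of the 8 passed the filter. Of the B cell genes MS4A1 was at most 0.134 TPM, CD79B at most 0.247 TPM and CD79A 2.35 to 4.19 TPM, and of the T cell genes CD3E was at most 0.759 TPM, CD3D at most 1.23 TPM and CD2 at most 16.2 TPM. Day 15 library 2 was highest in both the lymphocyte and the macrophage sums. In the fit without newborn library 5, the markers up and down at day 7 were 3 and 0 for fibroblasts, 2 and 2 for endothelium, 1 and 0 for pericytes and smooth muscle, 0 and 0 for macrophages, 0 and 1 for heart muscle and 1 and 0 for the erythroid list. In that fit 20.1% of all genes tested changed in either direction. The part of these markers in the mitotic genes' levels was not tested.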

How the data were processed

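The 9 left ventricle libraries were made with a stranded mRNA kit and sequenced, per the labels' protocols. The authors deposited 1 table of TPM, and the submitters' processing notes name Trimmomatic 0.33, HISAT2 2.0.5 and kallisto 0.43.1 with no roles. Not given in the sources used here were the build, the gene models and whether counting was by strand. TPM holds no depth, so no counting interval is given, and no coordinates or sequences are printed.

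TPM was taken as deposited. Genes with at least 1 TPM in at least 3 libraries were tested on log2(TPM + 1) with limma 3.58.1 in R 4.3.3, with 1 mean per age over all 9 libraries (6 residual degrees of freedom), a mean-variance trend and Benjamini-Hochberg adjustment over all genes, threshold 0.05. Fold changes are on that log2 scale and understate the change of low genes. The method was tested on simulated data. Members and other lists were chosen with earlier results of these data known. Values in each library are given for members called in any contrast, the most abundant and the smallest-p member of each role, members of opposite sign and members below the filter, and of the other lists the called gene with the smallest p is named. In addition, CCNB1, PLK1 and NUSAP1 are shown by library, and of the lists AURKB, ANAPC7, MYBL2 and E2F4 are named, all chosen after their values were seen. Row symbols were matched as written, and 6 list genes and CDK1 by identifier. Alternatives were other pseudocounts, filters, scalings and fits, a block for the replicate number, and fits without each library in turn. For the other lists and CDK1, the fit without newborn library 5 was added after seeing the data.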

Additional observations from a re-analysis of the deposited data

Results flagged for a closer look

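In 8 mitotic genes the step from day 0 to day 7 differed from the step from day 7 to day 15 in the test of the difference itself (limma, adjusted p under 0.05 over all genes). The first step minus the second step was 2.67 for BUB1B, 2.55 for TOP2A, 2.28 for SMC2, 2.27 for CENPF, 2.26 for CDCA8, 1.98 for KIF4A, 1.7 for ASPM and 1.66 for KIF15 on the log2(TPM + 1) scale. In all 8 the day 7 libraries lay above the libraries of both other ages. The day 7 libraries enter both steps, so a high day 7 value alone raises this contrast.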

How the results depend on the processing

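Between day 7 and day 0, 29 members were called, and 10 without a filter on low values, 9 of the 16 with a mean of at least 5 TPM, and 3 to 40 when 1 library was left out. The share of all genes called was 16.6%, and 6.98%, 19.1% and 3.06% to 21.9% in the same order. Between day 15 and day 7, 0 were called, 1 (SMC2) with a pseudocount of 5 TPM, and 0 to 1 without 1 library. For all genes the share called was 0.171%, then 0.245% and 0% to 0.487% in that order. Between day 15 and day 0, 0 were called, 4 after median-of-ratios scaling, 1 after rescaling without the most abundant row, 2 after rescaling without mitochondrial and the 20 most abundant rows, and 0 to 25 without 1 library. The share of all genes called was 23.9%, and 31%, 29.3%, 26% and 6.47% to 26.9% in the same order. For the first step minus the second, 8 were called, 1 with a pseudocount of 0.1 TPM, 0 without a filter, 0 with a mean of at least 5 TPM, and 0 to 36 without 1 library. For all genes the share called was 1.92%, then 1.15%, 0.237%, 1.15% and 0% to 5.89% in that order. The stricter filter tested fewer members, and otherwise the cause was not tested.

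With the replicate number as a block, 5 members were called between day 7 and day 0, 0 in both other comparisons of ages and 0 for the difference of steps. In that fit 6.99% of all genes were called between day 7 and day 0. The shares were 1.03% at day 15 against day 7, 7.49% at day 15 against day 0 and 0.228% for the difference of steps. Deviations of same-numbered libraries correlated between -0.21 and 0.17, and those of differently numbered libraries between -0.33 and 0.37. With so few libraries per age these values cannot decide whether the numbers pair the libraries.

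Of 3364 values of single members under other settings, 2999 kept direction and side of the threshold, 104 gained and 231 lost the call, and 30 reversed. A call could be lost only by the 29 members called at day 7 against day 0 and the 8 called for the difference of steps. In both other comparisons of ages 0 were called, so the 231 are not to be read as a share of 3364. BUB3 at day 7 against day 0 reversed to 0.020 (median-of-ratios), 0.034 (without the most abundant row) and 0.13 (without mitochondrial and top rows), and ranged from -0.16 to 0.028 without 1 library. At day 15 against day 7, MAD2L1 reversed to 6.28e-05 and HMMR to 0.25 with the block, and HMMR ranged from -0.35 (without day 15 library 6) to 0.13 (without day 15 library 1).

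At day 15 against day 0, CDC25B reversed to 0.11, 0.026 and 0.12 in the same order of scalings, CDC20 to 0.024 (median-of-ratios) and 0.039 (without mitochondrial and top rows), and PLK1 to -0.19 with the block. From the fit without newborn library 4 to that without newborn library 5, CDC25B went from -0.31 to 0.15, CDC20 from -0.44 to 0.16, CCNB1 from -0.18 to 0.73, PLK1 from -0.22 to 0.503, UBE2C from -0.14 to 0.89, CENPE from -0.027 to 0.44, NDC80 from -0.046 to 0.39 and NCAPG from -0.0019 to 0.68. CENPK went from -0.14 without day 15 library 6 to 0.38 without day 15 library 1.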

Other observations

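The TPM ratio of 2 partners of 1 complex was read in 7 pairs, chosen after values were seen and given with no test. The condensin partners SMC4 and SMC2 stood at a ratio of 6.03, 5.29 and 4.98 at day 0, 2.99, 3.48 and 3.02 at day 7 and 4.37, 6.07 and 5.11 at day 15. Day 7 did not overlap with either other age, including newborn library 5. The ratio of NUF2 to NDC80, 2 arms of the same kinetochore complex, was 1.09 to 2.20 at day 0, 2.51 to 2.62 at day 7 and 2.504 to 3.16 at day 15. BUB3 exceeded BUB1B 5.59 to 24.1 times at day 0, 2.32 to 2.60 times at day 7 and 3.03 to 5.65 times at day 15. The ages overlapped for the other condensin pair, NCAPG to NCAPH, at 1.61 to 2.41, 1.59 to 1.78 and 1.44 to 2.38 on day 0, day 7 and day 15. They overlapped too for SPC24 to SPC25, at 6.68 to 13.4, 8.22 to 15.4 and 8.59 to 16.3, and for BIRC5 to INCENP, at 1.91 to 2.91, 2.15 to 2.71 and 2.32 to 3.29. For CDCA8 to INCENP day 7 lay above both other ages, at 0.514 to 0.685, 0.707 to 0.784 and 0.635 to 0.696. A ratio within a library shows unequal change of its 2 genes and not which of them changed.

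The highest library within an age was the same for most members, and the rest of the order was shared by fewer. The lowest was library 4 at day 0 in 40 of 45 members, library 6 at day 7 in 30 and library 1 at day 15 in 36. Those libraries were also the lowest for most genes tested, at 59.7%, 54.5% and 74.4%. At day 7 library 2 was highest in 39 of 45 members (29.2% of all genes tested), and at day 15 library 6 was highest in 40 of 45 (19.0%). At day 0 the ratio of library 5 to the mean of libraries 4 and 6 was at least 2 in 37 of 45 members and in 4.98% of all genes tested.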
